A study of Homo sapiens with 4 samples.

Results

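The DNA replication machinery, the proteins that license, unwind and copy chromosomal DNA, was followed as 45 genes among 19912 in the count table of human endothelial cells. The genes were taken from a named list of origin licensing, helicase, polymerase, clamp and nucleotide supply genes. That list was chosen with earlier results of these data known. Its genes were found by matching Ensembl identifiers to symbols. All 45 were present and all 45 passed the low-count filter. The cells were endothelial cells derived from H1, an established human embryonic stem cell line, and were positive for GATA2/eGFP, a green fluorescent reporter for the transcription factor gene GATA2. The 2 groups were cells with intact GFI1 (wild type, WT) and cells without it (GFI1 knockout, GFI1-KO), each with 2 libraries, and both carried the reporter. GFI1 is a transcriptional repressor that promotes the endothelial-to-haematopoietic transition, in which it silences endothelial genes, and it is also known to restrain the cycling of blood stem cells. The labels do not give the altered part of the gene, the number of knockout clones or whether the replicates were separate differentiations, so the knockout may be 1 clone and p-values may measure technical spread.

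A chromosome is licensed for copying in G1 phase, when the origin recognition complex, CDC6 and CDT1 load the ring of MCM2 to MCM7 onto DNA as an inactive double helicase. At the start of S phase CDC45 and the GINS complex join the ring and turn it into the active helicase, polymerase alpha-primase lays down primers, and polymerases delta and epsilon extend them on the sliding clamp PCNA. Many of these genes are transcribed together in late G1 and S phase under E2F factors, which the RB proteins hold back until cyclin-dependent kinases release them. Their messages are low in cells that have left the cycle.

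The promoter letters of 4 replication genes are printed here because MCM6, POLA1 and MCM10 differed between the 2 WT libraries (values follow), while PCNA had the smallest genotype p. They are RefSeq sequences in GRCh38.p14, 5′ to 3′ on the gene's strand and before the transcription start, with the E2F-type strings TTTGGCGC, TTTCCCGC, TTTCGCGC and TTTGGGCGC and the string CCAAT in capitals on either strand, so the reverse complement also appears. The stretches are chr2:135876444-135876643 (minus strand) for MCM6, chr10:13161358-13161553 (plus) for MCM10, chr20:5126627-5126785 (minus) for PCNA and chrX:24693718-24693917 (plus) for POLA1.
MCM6: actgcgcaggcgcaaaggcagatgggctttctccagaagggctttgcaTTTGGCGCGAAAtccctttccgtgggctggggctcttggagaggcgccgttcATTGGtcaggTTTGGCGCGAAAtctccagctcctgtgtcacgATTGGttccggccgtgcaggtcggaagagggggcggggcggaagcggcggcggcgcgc
MCM10: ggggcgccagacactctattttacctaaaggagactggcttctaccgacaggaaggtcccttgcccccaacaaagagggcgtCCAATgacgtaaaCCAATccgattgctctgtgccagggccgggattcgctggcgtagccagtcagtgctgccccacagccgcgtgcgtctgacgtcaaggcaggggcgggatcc
PCNA: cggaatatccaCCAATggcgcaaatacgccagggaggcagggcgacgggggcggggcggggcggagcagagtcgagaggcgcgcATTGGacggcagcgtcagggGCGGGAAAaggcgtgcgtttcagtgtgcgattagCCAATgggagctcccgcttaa
POLA1: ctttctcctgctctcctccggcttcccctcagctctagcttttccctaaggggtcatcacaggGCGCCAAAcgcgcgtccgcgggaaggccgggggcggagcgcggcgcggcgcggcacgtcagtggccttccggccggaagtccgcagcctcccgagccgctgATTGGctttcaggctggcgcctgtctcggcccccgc
The MCM6 stretch holds 4 E2F-type matches, which lie as overlapping pairs on opposite strands 152 and 90 bases before the start, and 2 CCAAT strings. PCNA holds 1 E2F-type string 59 bases before its start and 3 CCAAT strings, and POLA1 holds 1 of each. MCM10 holds 2 CCAAT strings and none of the E2F-type strings in this window. Over the 250 bases before any RefSeq start, an E2F-type string was found in 14 of the 39 replication genes with a window (35.9%), in 5.08% of 9119 tested genes with a window and in 2.46% of all 35116 windows. CCAAT was found in 24 of the 39 (61.5%) and in 41.9% of the tested genes. TTTGAA, the core of the element found in many mitotic promoters, was found in 1 of the 39 (2.6%) and in 11.88% of the tested genes. E2F-type strings may overlap each other, a gene with several starts counts if any start has a match, and a match describes letters, not binding.

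The libraries differed in depth. The WT libraries held 2239214 and 2417410 counts (replicates 1 and 2), GFI1-KO replicate 2 held 2332621 and GFI1-KO replicate 1 only 146584, so 1 count there is worth 6.62 CPM (a count relative to the total of its library, after edgeR's TMM scaling). The median count of a replication gene was 121 and 155 in the WT libraries and 5 and 137 in the GFI1-KO libraries. Values of GFI1-KO replicate 1 at or under 19.9 CPM rest on 3 counts or fewer, and all intervals of counts cover counting error only. GFI1 itself was counted 131 and 139 times in WT and 3 and 44 times in GFI1-KO, or 58.5 and 58.3 against 19.9 and 19.6 CPM (edgeR adjusted p = 0.0215). All 10 endothelial markers were detected in each library, summing to 0.703% and 0.718% of WT counts and 0.943% and 0.997% of GFI1-KO counts. KDR held the largest part, at 2990 and 3290 CPM in WT and 3700 and 4970 CPM in GFI1-KO. Of these markers only CD34 was called between the genotypes (log2 fold change 1.02, edgeR adjusted p = 0.0357). PECAM1, the single one with an estimate below 0, was at 443 and 388 CPM in WT and 344 and 324 CPM in GFI1-KO. The defining blood markers PTPRC and the globins HBE1, HBG1, HBG2 and HBA1, and the pluripotency gene NANOG, were at 0 counts in all 4 libraries. Other markers of these lists were detected: LAPTM5 was counted 515 and 517 times in WT and 28 and 519 times in GFI1-KO, and LIN28A 1351 and 1514 against 79 and 1038. KLF1 (23 and 39 against 0 and 5) and ITGA2B (17 and 46 against 0 and 4) were low. In all, 7 and 6 of 14 blood markers were at 0 in the WT libraries and 13 and 8 in the GFI1-KO libraries, and the list summed to 0.0191% to 0.0273% of counts. The pluripotency list summed to 0.0549% to 0.0768%, with 1 to 5 of its 7 genes at 0. The 13 blood markers and 5 pluripotency genes at 0 were those of the shallow GFI1-KO replicate 1. Numbers of genes at 0 there cannot be set against those of the deeper libraries.

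Between the genotypes no replication gene passed the test. With edgeR's quasi-likelihood test adjusted over 11380 genes, 0 of 45 were higher and 0 lower in GFI1-KO, against 0.958% called over all genes (0.773% higher and 0.185% lower). At an unadjusted p under 0.05 the count was also 0 of 45, against 9.35% of all genes, and DESeq2 called 0 of the 42 that it gave an adjusted p. Log2 fold changes (GFI1-KO over WT) ran from -0.545 to 0.421, with a median of -0.129 beside -0.0235 over all genes. They were below 0 for 32 of 45, against 52.5% of all genes. The precision allows a statement on size for part of the list: for 31 of 45 the unadjusted 95% interval lay inside a 2-fold change in either direction, against 51.9% of all genes, and the median interval reached 0.604 to each side on the log2 scale. For the other 14 a 2-fold difference lies within the interval.

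**Figure D1:**
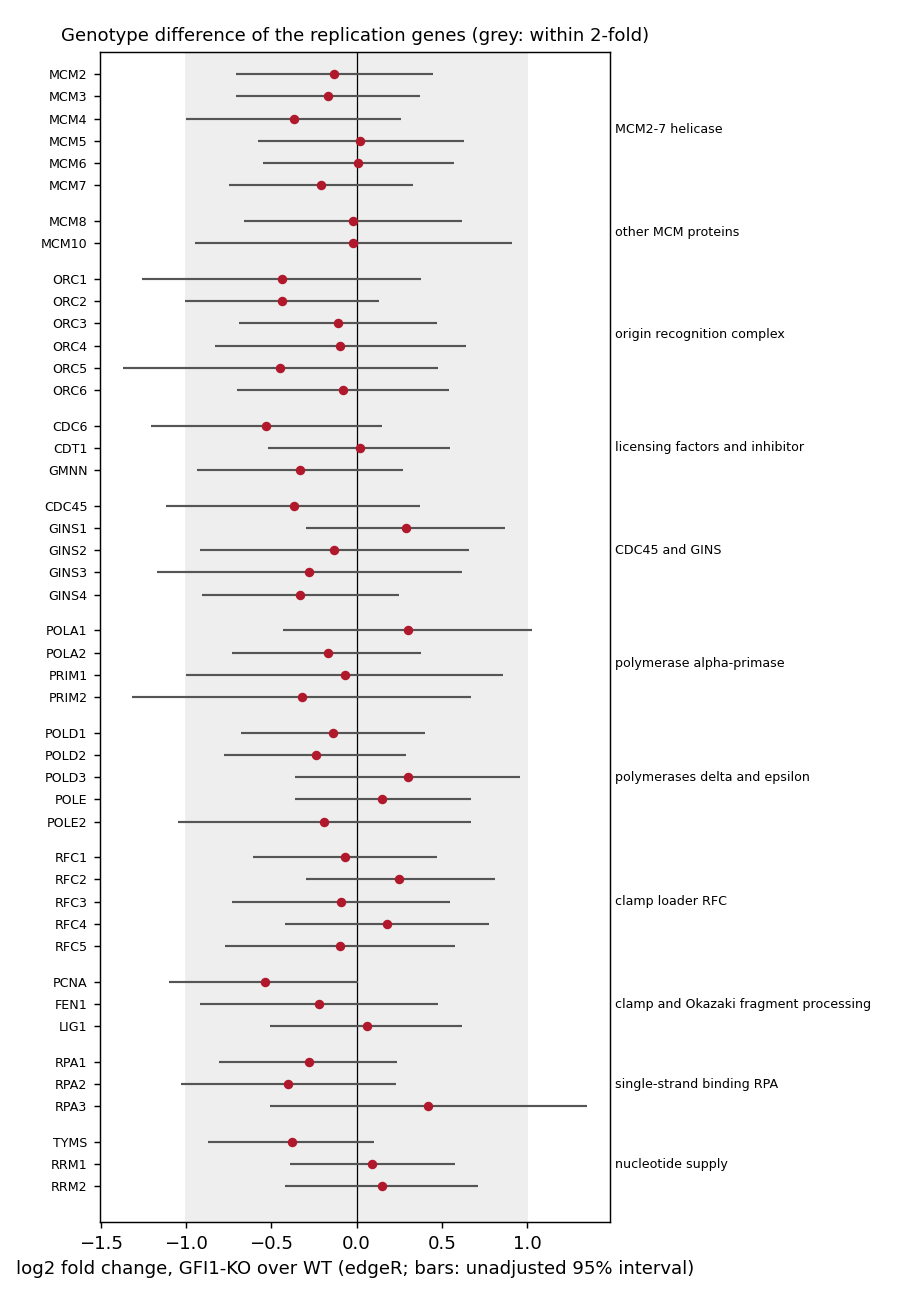
Log2 fold change of each replication gene, GFI1-KO over WT (x axis), grouped by role (y axis). Points are edgeR estimates from 2 libraries per genotype, bars are unadjusted 95% intervals and the grey band marks a 2-fold change in either direction. Each interval includes 0, and 31 of 45 lie inside the band.

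The combined output of the 45 genes differed between libraries of the same genotype, and the genotypes overlapped. They took 0.321% of counts in WT replicate 1 (Wilson 95% interval 0.314% to 0.329%), 0.405% in WT replicate 2 (0.398% to 0.414%), 0.262% in GFI1-KO replicate 1 (0.237% to 0.289%, from 384 counts) and 0.345% in GFI1-KO replicate 2 (0.338% to 0.353%). WT replicate 2 was highest, GFI1-KO replicate 2 lay between the WT libraries, and GFI1-KO replicate 1 was lowest. At each replicate number the GFI1-KO share was below the WT share, though no label ties libraries of the same number. With 2 libraries against 2 an exact permutation test cannot go below p = 0.33 (two-sided), so the shares were not tested. In bulk RNA, fewer cells in S phase and less RNA of these genes per cell cannot be told apart. For 13 of 45 genes the 4 libraries stood in this same order, against 7.63% of all genes.

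**Figure D2:**
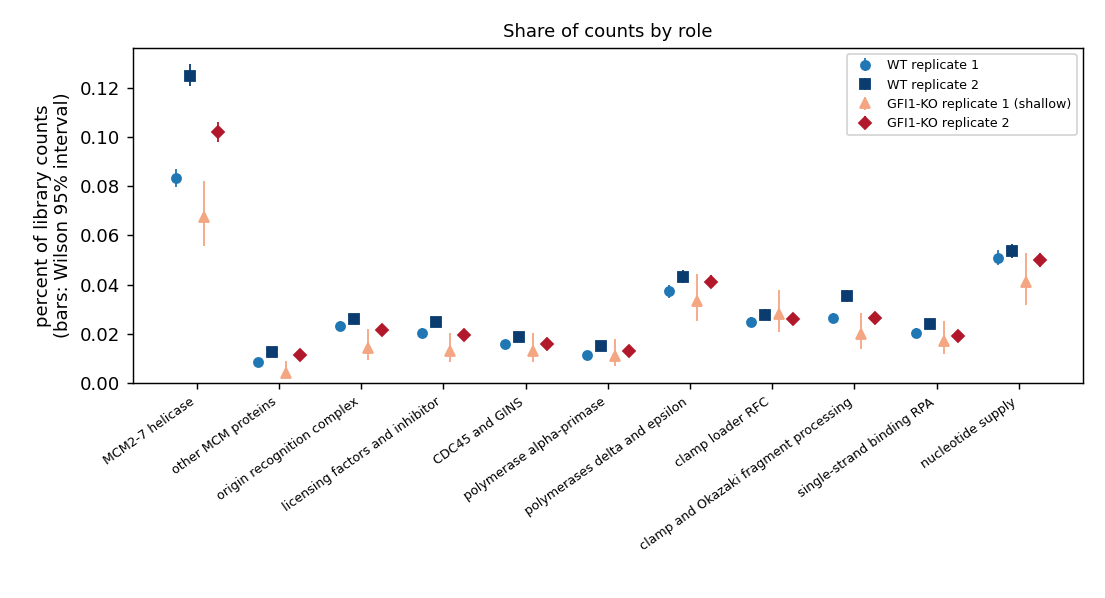
Percent of each library's counts taken by the genes of each role (y axis, linear), with Wilson 95% intervals, for the 4 libraries. The MCM2-7 helicase takes the largest share, and its 4 values run from 0.0675% in GFI1-KO replicate 1 to 0.125% in WT replicate 2.

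The 2 WT libraries differed from each other, with the helicase genes higher in WT replicate 2. The ratio of WT replicate 2 to WT replicate 1 had a median of 1.29 over the 45 genes and of 0.998 over all genes, and it was above 1 for 36 of 45, against 49.7% of all genes. A conditional exact binomial test of the reads of these 2 libraries, added after the library values were seen and adjusted over 11380 genes, called 12 higher in WT replicate 2, against 7.81% of all genes, and 0 lower, against 7.15%. The 12 were MCM2 to MCM7, MCM10, POLA1, FEN1, CDC6, POLE and LIG1. That test compares 2 libraries, not conditions, and counts only sampling error. GFI1-KO replicate 2 fell between the WT libraries for 21 of 45, against 30.4% of all genes. Set against WT replicate 1, it had 10 genes higher (12.2% of all genes) and 1 lower (9.21%), with a median ratio of 1.08. Against WT replicate 2 it had 0 higher (10.9%) and 7 lower (8.08%), with a median ratio of 0.849. These 2 comparisons share GFI1-KO replicate 2 and each shares a WT library with the first.

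**Figure D3:**
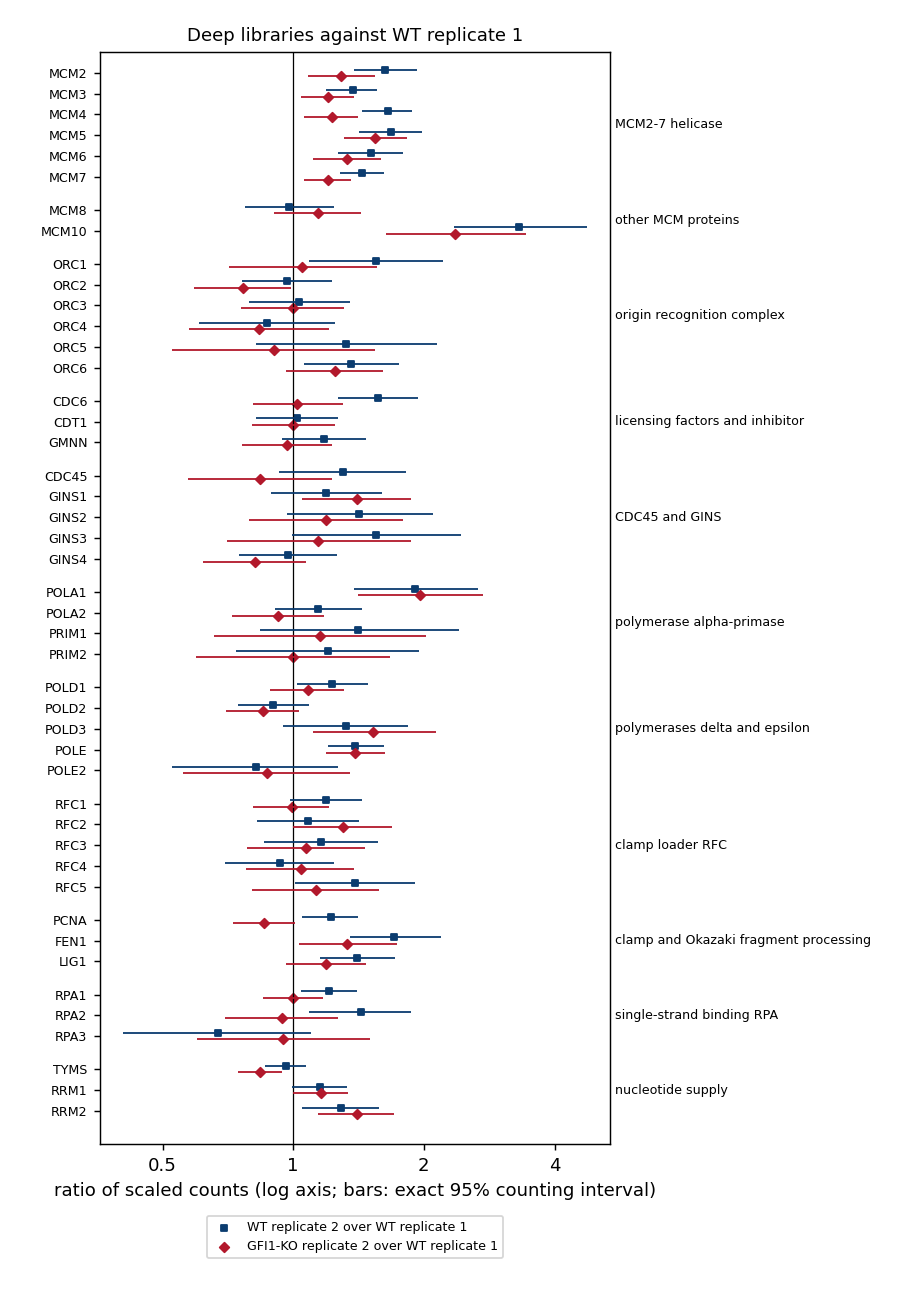
Ratio of TMM-scaled counts to WT replicate 1 (x axis, log scale) for WT replicate 2 (squares) and GFI1-KO replicate 2 (diamonds), by gene and role (y axis). Bars are exact 95% counting intervals. For MCM2 to MCM7 both symbols lie right of 1, the squares from 1.37 to 1.68.

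The MCM2-7 helicase carried the largest part of this spread. Its 6 genes took 0.0832% of counts in WT replicate 1 (Wilson 95% interval 0.0796% to 0.0871%), 0.125% in WT replicate 2 (0.121% to 0.13%), 0.0675% in GFI1-KO replicate 1 (0.0555% to 0.0822%) and 0.102% in GFI1-KO replicate 2 (0.0981% to 0.106%). All 6 were called higher in WT replicate 2 than in WT replicate 1, against 7.81% of all genes. All 6 had GFI1-KO replicate 2 between the WT libraries (30.4%), and 5 of 6 were lowest in GFI1-KO replicate 1 (43.8%). MCM7 (chromosome 7, 100092728 to 100101940, minus strand), the most abundant of the 6 per kilobase of exon at a mean of 50.9 CPM per kilobase, stood at 204 and 293 CPM in WT and 152 and 244 CPM in GFI1-KO. Its log2 fold change between genotypes was -0.21 (SE 0.255, edgeR adjusted p = 0.913). MCM4, a core subunit of the ring, stood at 159 and 263 CPM in WT and 86.1 and 195 CPM in GFI1-KO, and its genotype estimate was -0.37 on the log2 scale (SE 0.298, adjusted p = 0.831). Its WT ratio was 1.65 (exact 95% interval 1.44 to 1.88). MCM3 was at 165 and 226 CPM in WT and 119 and 198 CPM in GFI1-KO. The gap between the WT libraries was thus wider than the genotype difference for each of these genes. MCM5, with 103 and 173 CPM in WT and 92.7 and 159 CPM in GFI1-KO, had the highest WT ratio of the ring at 1.68 (1.42 to 1.98). MCM2 was at 102 and 167 CPM in WT and 99.4 and 132 CPM in GFI1-KO, and MCM6 at 98.7 and 149 against 106 and 131 CPM. For MCM5 and MCM6 the genotype estimates were near 0 (0.02 and 0.01), and both were below 0 with DESeq2 (-0.06 and -0.03).

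MCM10, which helps to activate the loaded helicase, had the widest gap between the WT libraries of all 45 genes. MCM10 (chromosome 10, 13161554 to 13211104, plus strand) was counted 44 and 155 times in WT and 3 and 104 times in GFI1-KO, or 19.6 and 65 CPM against 19.9 and 46.3 CPM. WT replicate 2 exceeded WT replicate 1 by 3.31 times (exact 95% interval 2.35 to 4.74), and GFI1-KO replicate 2 exceeded it by 2.36 times. The genotype estimate was -0.02 (SE 0.441), with an interval from -0.95 to 0.91. MCM8, a relative that acts in homologous recombination, was flat across the deep libraries at 63.9 and 62.5 CPM (WT) and 72.6 CPM (GFI1-KO replicate 2), and stood at 19.9 CPM, 3 counts, in GFI1-KO replicate 1.

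The origin recognition complex, which marks the sites where the helicase is loaded, had no gene called between the WT libraries or the genotypes. Over all genes, 7.81% were called higher in WT replicate 2, 7.15% lower, and 0.958% between the genotypes. The ratio of WT replicate 2 to WT replicate 1 was 1.55 for ORC1 (exact counting interval 1.09 to 2.21) and 1.36 for ORC6 (1.06 to 1.75). It was above 1 for 4 of 6 genes and below 1 for ORC2 (0.966) and ORC4 (0.87). The missing calls thus do not show level WT libraries. The 6 genes of the complex took 0.0231% and 0.0259% of WT counts and 0.0143% and 0.0215% of GFI1-KO counts. All 6 genotype estimates were below 0, from -0.45 to -0.08, against 52.5% of all genes. In GFI1-KO replicate 1 each had 5 counts or fewer, and 5 of 6 were lowest there, against 43.8% of all genes. ORC3 had the highest level per kilobase of exon in the complex (mean 12.3 CPM per kilobase) and stood at 49.1 and 50.8 CPM in WT and 33.1 and 49 CPM in GFI1-KO. ORC2 was at 63.4 and 61.3 CPM in WT and 33.1 and 48.5 CPM in GFI1-KO, so that its groups did not overlap (log2 fold change -0.44, SE 0.268, edgeR adjusted p = 0.714). ORC1, the subunit whose level is known to follow the cell cycle, was at 24.1 and 37.3 CPM in WT and 6.62 and 25.4 CPM in GFI1-KO, the third of these being 1 count. ORC5 also had 1 count in GFI1-KO replicate 1 and stood at 14.3 and 18.9 CPM (WT) and 12.9 CPM (GFI1-KO replicate 2). ORC4 and ORC6 had estimates of -0.10 and -0.08.

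Among the licensing factors CDC6 differed between the WT libraries and CDT1 was level (ratio 1.02, exact 95% interval 0.82 to 1.27). CDC6, the ATPase that loads the MCM ring, stood at 64.3 and 101 CPM in WT and 19.9 and 65.9 CPM in GFI1-KO. It was 1.57 times as high in WT replicate 2 as in WT replicate 1 (exact 95% interval 1.27 to 1.94), and GFI1-KO replicate 2 was level with WT replicate 1 at a ratio of 1.02. Its genotype estimate was -0.53 (SE 0.324, edgeR adjusted p = 0.714). CDT1, its partner in loading, was at 72.8 and 74.3 CPM in WT and 79.5 and 73 CPM in GFI1-KO, nearly the same in the 4 libraries. GMNN encodes geminin, the inhibitor that binds CDT1 after licensing. It was at 65.2 and 76.8 CPM in WT and 26.5 and 63.2 CPM in GFI1-KO, the 26.5 resting on 4 counts. The ratio of CDT1 to GMNN counts was 1.12 and 0.967 in WT and 1.15 in GFI1-KO replicate 2, and 3 (0.909 to 12.8) in the shallow library, so the intervals overlapped.

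CDC45 and the GINS complex, which complete the active helicase, showed no call between the WT libraries or the genotypes. Over all genes, 7.81% were called higher in WT replicate 2, 7.15% lower, and 0.958% between the genotypes. WT replicate 2 was above WT replicate 1 for 4 of 5, with a median ratio of 1.3 beside 1.29 over all replication genes. The ratio was 1.55 for GINS3 (exact counting interval 0.993 to 2.44) and 1.42 for GINS2 (0.968 to 2.1), on 34 to 71 counts. At such counts a missing call does not show level WT libraries. CDC45 stood at 28.1 and 36.5 CPM in WT and 33.1 and 23.6 CPM in GFI1-KO (log2 fold change -0.37, SE 0.351, edgeR adjusted p = 0.868). GINS1, the GINS gene with the highest level per kilobase (mean 10.9 CPM per kilobase), was at 38.4 and 45.7 CPM in WT and 39.7 and 53.9 CPM in GFI1-KO, and its estimate of 0.29 was the single positive one of the 5 genes. GINS4 was at 54 and 52.5 CPM in WT and 33.1 and 44.1 CPM in GFI1-KO, with groups that did not overlap. GINS3 had 1 count in GFI1-KO replicate 1 and stood at 15.2 and 23.5 CPM (WT) and 17.4 CPM (GFI1-KO replicate 2). GINS2 had an estimate of -0.13. The interval of CDC45 between the genotypes ran from -1.12 to 0.37, so a 2-fold lower level is not outside it.

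Among the polymerase genes POLA1 and POLE were called higher in WT replicate 2, against 7.81% of all genes, and differences between subunits were not tested. WT replicate 2 was above WT replicate 1 for 4 of 4 alpha-primase genes and 3 of 5 delta and epsilon genes, against 49.7% of all genes. The uncalled ratios included 1.41 for PRIM1 (exact 95% interval 0.837 to 2.41) and 1.32 for POLD3 (0.946 to 1.84). POLA1 (chromosome X, 24693919 to 24996986, plus strand), the catalytic subunit of polymerase alpha, was at 25.5 and 48.7 CPM in WT and 26.5 and 49.9 CPM in GFI1-KO. Both replicates numbered 2 were thus above both numbered 1, with a WT ratio of 1.91 (exact 95% interval 1.38 to 2.67) and a ratio of 1.96 for GFI1-KO replicate 2 to WT replicate 1. Its accessory subunit gene POLA2 was at 61.6 and 70.5 CPM in WT and 66.2 and 57 CPM in GFI1-KO. PRIM2, the large primase subunit, had the lowest level of the 45 per kilobase of exon (mean 2.52 CPM per kilobase). It was counted 33 and 42 times in WT and 0 and 33 times in GFI1-KO, and 0 counts in GFI1-KO replicate 1 allow a level of up to 19.9 CPM. PRIM1, the catalytic primase subunit, had an estimate of -0.07. POLE, the catalytic subunit of the leading-strand polymerase epsilon, was at 128 and 178 CPM in WT and 152 and 178 CPM in GFI1-KO, a WT ratio of 1.39 (1.2 to 1.62). POLD2, an accessory subunit of the lagging-strand polymerase delta, was at 104 and 93.6 CPM in WT and 66.2 and 88.6 CPM in GFI1-KO. POLD3 stood at 29 and 38.2 CPM in WT and 26.5 and 44.5 CPM in GFI1-KO. POLD1 and POLE2 had genotype estimates of -0.14 and -0.19.

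The clamp PCNA had the smallest genotype p of the list and did not pass. PCNA (chromosome 20, 5114953 to 5126626, minus strand) encodes the ring that holds the polymerases on DNA, and with a mean of 85 CPM per kilobase of exon it was the second most abundant of the 45. It stood at 141 and 172 CPM in WT and 66.2 and 121 CPM in GFI1-KO, and the groups did not overlap. The log2 fold change was -0.54 (SE 0.262, 95% interval -1.10 to 0.01), with an unadjusted p = 0.0534 and an edgeR adjusted p = 0.553. GFI1-KO replicate 1 rests on 10 counts. From the deep libraries alone, GFI1-KO replicate 2 was 0.858 times WT replicate 1 and 0.705 times WT replicate 2 (exact 95% interval 0.603 to 0.824). FEN1, the nuclease that trims Okazaki fragments, stood at 47.8 and 81.8 CPM in WT and 19.9 and 63.7 CPM in GFI1-KO, with a WT ratio of 1.71 (1.35 to 2.19). LIG1, the ligase that seals them, was at 73.7 and 103 CPM in WT and 106 and 87.7 CPM in GFI1-KO, a WT ratio of 1.40.

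The clamp loader RFC, which opens PCNA and closes it around DNA, was even across the libraries. Of all genes, 7.81% were called higher in WT replicate 2, 7.15% lower, and 0.958% between the genotypes. All 5 genotype intervals of the RFC genes lay inside a 2-fold change, against 51.9% of all genes. RFC2, the most abundant RFC gene per kilobase (mean 23.2 CPM per kilobase), was at 46.9 and 50.8 CPM in WT and 46.4 and 61 CPM in GFI1-KO. RFC4 was at 43.8 and 40.7 CPM in WT and 59.6 and 45.4 CPM in GFI1-KO, the single replication gene with both GFI1-KO libraries above both WT libraries, against 18.6% of all genes (log2 fold change 0.18, SE 0.283, adjusted p = 0.943). RFC1, RFC3 and RFC5 had estimates of -0.07, -0.09 and -0.10.

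Single-strand binding and nucleotide supply followed no common pattern. RPA1, the large subunit of the RPA trimer that coats single-stranded DNA, was at 141 and 170 CPM in WT and 92.7 and 141 CPM in GFI1-KO. RPA2 was at 42 and 60 CPM in WT and 33.1 and 39.6 CPM in GFI1-KO, and GFI1-KO replicate 2 was 0.66 times WT replicate 2 (exact 95% interval 0.501 to 0.866). RPA3, the small subunit, went the other way in the WT libraries with 18.8 and 12.6 CPM, and had 39.7 and 17.8 CPM in GFI1-KO, the highest genotype estimate of the list at 0.42 (SE 0.44, edgeR adjusted p = 0.887). TYMS, thymidylate synthase, was the most abundant of the 45 per kilobase (mean 95.7 CPM per kilobase). It was at 281 and 270 CPM in WT and 159 and 235 CPM in GFI1-KO (log2 fold change -0.38, SE 0.231, adjusted p = 0.702), and its WT ratio was 0.961. RRM1, the large subunit of ribonucleotide reductase, was at 153 and 176 CPM in WT and 172 and 177 CPM in GFI1-KO. RRM2, its small subunit known to be made in S phase, was at 75.9 and 97.8 CPM in WT and 66.2 and 106 CPM in GFI1-KO. The 3 nucleotide supply genes thus took 0.051% and 0.0536% of WT counts, a smaller gap than that of the helicase.

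**Figure D4:**
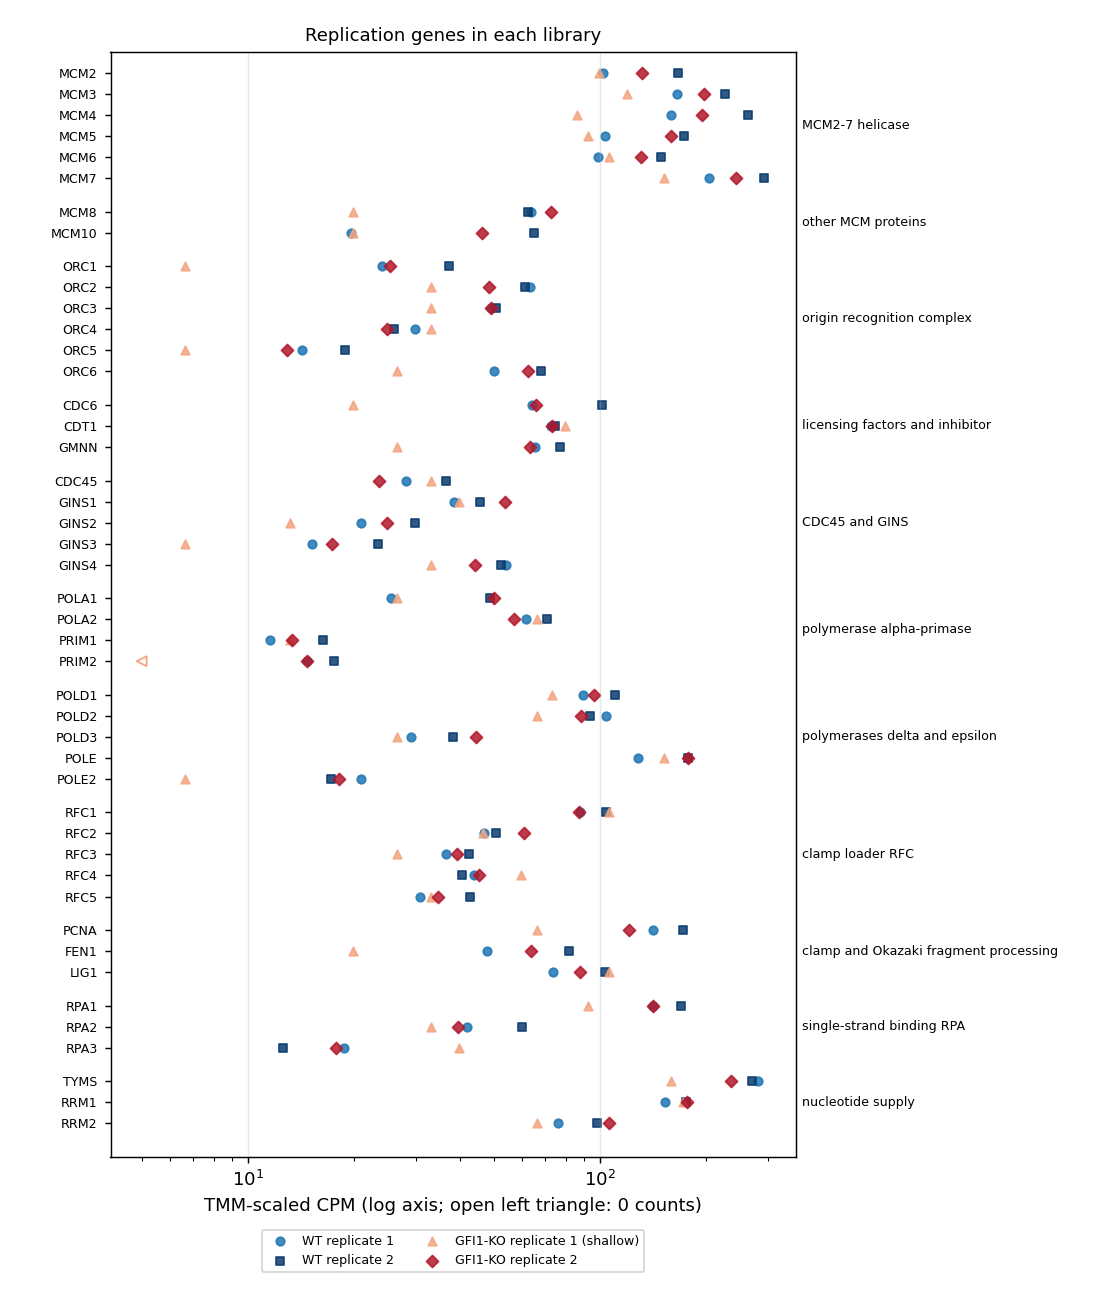
TMM-scaled CPM (x axis, log scale) of each of the 45 replication genes in the 4 libraries, grouped by role (y axis); an open triangle marks 0 counts. For the MCM2-7 genes WT replicate 2 lies furthest right and GFI1-KO replicate 2 lies between the WT libraries, while CDT1 and RRM1 stay close together.

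The median genotype estimate depended on which library was left out. Among the 4 libraries GFI1-KO replicate 1 was the lowest for 29 of 45 genes, against 43.8% of all genes, and the highest for 6, against 33.2%. Its ratio to GFI1-KO replicate 2 had a median of 0.676 beside 0.93 over all genes, and 0 of 45 were called in either direction at this depth, against 1.12% higher and 1.11% lower of all genes. The groups did not overlap for 12 of 45, against 41.2% of all genes; both GFI1-KO libraries lay below both WT libraries for 11, against 22.7%. The median log2 fold change of the 45 was -0.031 with GFI1-KO replicate 1 left out, where 30 of 45 were below 0, and -0.567 with GFI1-KO replicate 2 left out. It was -0.312 when WT replicate 1 was dropped and 0.051 when WT replicate 2 was dropped, so leaving out the shallow library moved it least. Genes with histone symbols (71 genes) took 0.216% of counts in GFI1-KO replicate 1 and 0.0015% to 0.00277% in the other 3 libraries. Their part in the lower replication values of that library was not tested.

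Other genes of the replication programme were counted in 8 further lists of 109 genes, of which 103 were tested. None was called between the genotypes, 0 higher and 0 lower with edgeR and 0 of 96 with DESeq2. At an unadjusted p under 0.05 there were 4, against 9.35% of all genes: CAD, CCND2, CCND3 and CDK6, the last named after its value was seen. Of the 12 chromatin assembly genes, 11 had the higher value in WT replicate 2, against 49.7% of all genes, and 7 were called higher there, against 7.81%. GFI1-KO replicate 2 lay between the WT libraries for 10, against 30.4%. UHRF1, which guides DNA methylation to new strands, was at 87.5 and 150 CPM in WT and 26.5 and 93.9 CPM in GFI1-KO. NASP, a histone chaperone, was at 399 and 522 CPM in WT and 258 and 421 CPM in GFI1-KO. Among fork protection genes TIPIN, a partner of TIMELESS at the fork, had 14.3 and 35.7 CPM in WT and 6.62 and 39.2 CPM in GFI1-KO, while HUS1, part of the checkpoint clamp, had 13 and 15.5 CPM in WT and 26.5 and 21.8 CPM in GFI1-KO.

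In the remaining lists genes differed in their order over the libraries. CAD, which starts pyrimidine synthesis, had the smallest adjusted p of these lists at 148 and 219 CPM in WT and 86.1 and 118 CPM in GFI1-KO (log2 fold change -0.74, SE 0.264, edgeR adjusted p = 0.279). RRM2B, the p53-induced subunit of ribonucleotide reductase, ran opposite to RRM2 in the WT libraries with 77.7 and 46.6 CPM, and was at 46.4 and 39.6 CPM in GFI1-KO. LRWD1, which binds the origin recognition complex, was at 28.1 and 33.2 CPM in WT and 26.5 and 45.8 CPM in GFI1-KO. DDB1, part of the ligase that degrades CDT1, was at 415 and 436 CPM in WT and 258 and 399 CPM in GFI1-KO. Of the genes that remove flaps or RNA, DNA2 was at 36.6 and 46.6 CPM in WT and 39.7 and 32 CPM in GFI1-KO, and RNASEH2B at 20.5 and 29 against 13.2 and 20 CPM. None of these 4 passed the test. The 16 G2 and mitosis genes had a median ratio of 1.07 between the WT libraries, and 5 were called higher in WT replicate 2, against 7.81% of all genes. MKI67, the proliferation marker, was at 482 and 684 CPM in WT and 954 and 612 CPM in GFI1-KO. CENPE, a kinetochore motor, was at 125 and 160 CPM in WT and 245 and 164 CPM in GFI1-KO. Both were highest in GFI1-KO replicate 1, but that library was the highest for 6 of the 16 genes and the lowest for 8, against 33.2% and 43.8% of all genes. AURKA, a mitotic kinase named after its values were seen, was at 115 and 107 CPM in WT and 46.4 and 98.4 CPM in GFI1-KO.

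Of the 4 CDK inhibitor genes tested, CDKN1A, CDKN1B and CDKN1C were called lower in WT replicate 2 than in WT replicate 1, against 7.15% of all genes, and CDKN2D was not called (4.02 and 7.97 CPM). CDKN1A, which encodes p21, an inhibitor of cyclin-dependent kinases that also binds PCNA, was counted 384 and 108 times in WT and 11 and 127 times in GFI1-KO, or 171 and 45.3 CPM against 72.9 and 56.5 CPM. WT replicate 2 was thus at 0.264 times WT replicate 1 (exact 95% interval 0.211 to 0.328). The genotype estimate was -0.86 (SE 0.462, edgeR adjusted p = 0.635), and it passed without WT replicate 2 (-1.49, adjusted p = 0.0263) and without GFI1-KO replicate 1 (-0.93, adjusted p = 0.0348). Its sign turned without WT replicate 1 (0.43), and with the replicate block it was -0.20, so the direction depended on WT replicate 1. CDKN1C, which encodes p57, was at 71.9 and 43.6 CPM in WT and 72.9 and 38.7 CPM in GFI1-KO. CDKN1B, which encodes p27 and was named after its values were seen, was at 55.4 and 36.5 CPM in WT and 79.5 and 49.4 CPM in GFI1-KO. The untested CDKN2A, CDKN2B and CDKN2C had 7 counts or fewer in each library. In the WT libraries CDKN2A was counted 3 and 7 times, CDKN2C 2 and 5 times and CDKN2B 0 and 0 times, too few to read a direction. Markers of other cell types also differed between the WT libraries: mesenchymal and smooth muscle markers summed to 0.298% and 0.211% of counts and epithelial markers to 0.0656% and 0.0447%. The GFI1-KO libraries had 0.229% each of mesenchymal markers and 0.0246% (36 counts) and 0.0525% of epithelial ones. GFI1-KO replicate 1 was lowest in both replication genes and epithelial markers. The order of the libraries otherwise differed: WT replicate 1 was highest in epithelial markers and WT replicate 2 in replication genes. The part of either marker list in the replication values was not tested.

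The cyclin D genes, whose products act with CDK4 and CDK6 on the RB proteins, followed no common pattern. CCND2 was at 60.3 and 48.7 CPM in WT and 424 and 57 CPM in GFI1-KO, so that its estimate of 1.64 on the log2 scale (SE 0.585, edgeR adjusted p = 0.281) went with 1 high library, GFI1-KO replicate 1. CCND3 was at 87.5 and 124 CPM in WT and 72.9 and 65 CPM in GFI1-KO (log2 fold change -0.67, SE 0.276, adjusted p = 0.415), so its groups did not overlap. CCND1, outside the naming rule and added after its values were seen, was at 338 and 367 CPM in WT and 265 and 522 CPM in GFI1-KO, with GFI1-KO replicate 2 highest.

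Some values rest on shared exons. TYMS shares 39.15% of its exon bases with ENOSF1 on the other strand, RRM2 20.2% with AC007240.1 and POLA2 35.1% with AP000944.2 on the same strand, and MCM2 22.7% and GINS4 21.2% with antisense genes. MCM7 shares 8.94% with AP4M1 on the other strand. Whether the counting used strand is not given in the sources used here. Reads of these pairs could have been split or dropped, and the same holds for PRIM2, PCNA and RRM2, which have similar copies elsewhere in the genome.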

How the data were processed

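RNA of 4 libraries was sequenced, 2 WT and 2 GFI1-KO, from Trizol extracts by an Illumina TruSeq RNA kit, per the labels' protocols. The deposited values are unnormalized counts of reads for each gene. The tools named in the submitters' processing notes are DESeq 1.18.1, HTSeq 0.6.0, HISAT2 2.0.4 and SAMtools 1.3.1, and the genome is named hg38 or GRCh38. What each tool was used for is not given in the sources used here. Identifiers were matched to GENCODE release 29 (19902 of 19912), which also gave exon lengths and overlaps. Groups and replicate numbers came from the sample titles, and columns were matched to them by name.

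Counts were tested in R 4.3.3 with edgeR 4.0.16 (TMM scaling, filterByExpr with minimum count 10 and minimum total 15, glmQLFit at its defaults, glmQLFTest on genotype), with Benjamini-Hochberg adjustment over the 11380 genes tested and a threshold of 0.05. Log2 fold changes used a prior count of 0.125. The script was tested on simulated data. CPM was scaled by TMM factors. A pair of libraries was compared gene by gene with a conditional exact binomial test, two-sided, on the TMM sizes. Library totals were 146584 to 2417410. A floor of 3 counts is 1.34 and 1.26 CPM in WT and 19.9 and 1.34 CPM in GFI1-KO. The reads carry no molecular identifiers.

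The replication genes, roles and further lists were chosen with earlier results of these data known. Values in every library are given for the 25 genes of the list with the smallest unadjusted p, the highest per-kilobase gene of each role and the 2 genes of each further list with the smallest p. MCM2, MCM5, MCM6, MCM10, CDT1, POLE, LIG1, RRM1, RRM2, CCND1, CDK6, CDKN1B, CDKN2D and AURKA were added after their values were seen. Alternatives were DESeq2 1.42.0, another dispersion form, 3 scalings, no filter, leaving out 1 library at a time, and a replicate block. The difference of replicate 1 from replicate 2 in WT correlated with that in GFI1-KO at 0.112 over genes. GFI1-KO replicate 1 has a median of 6 counts per gene tested, so this value cannot decide on pairing. With 2 pairs and no label that ties them, the numbers were not used to pair libraries. Promoter letters came from RefSeq (GRCh38.p14), with 6 replication genes lacking a window.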

Additional observations from a re-analysis of the deposited data

How the results depend on the processing

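No replication gene was called between the genotypes under any alternative run (DESeq2 gave 42 of 45 an adjusted p). The smallest adjusted p of a replication gene was 0.0628 (MCM4, log2 fold change -1.28, edgeR without GFI1-KO replicate 2). Calls over all genes were 109 and became 31 with DESeq2, 58 with the newer dispersion form, 58 with upper-quartile scaling, 72 with library totals, 305 without the low-count filter, and 62 to 373 with 1 library left out. The median log2 fold change of the 45 genes, -0.129, ran from -0.567 to 0.051 with 1 library left out. With the replicate number as a block the calls over all genes rose to 327 and those of replication genes stayed at 0 (smallest adjusted p = 0.142, CDC6, -0.77). The median of the 45 genes with the block was -0.22, beside -0.021 over all genes, and 35 of 45 were below 0. Nothing ties the numbers to shared cultures, so that fit does not show pairing. The calls between the WT libraries stayed at 12 with library totals in place of TMM sizes, and the median ratio became 1.27, an alternative chosen after seeing the data.

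Signs near 0 turned. MCM5 was at -0.06 with DESeq2 and -0.13 with the replicate block. MCM6 was at -0.03 with DESeq2, -0.01 with upper-quartile scaling, -0.01 with library totals, -0.01 without the filter and -0.09 with the block. CDT1 was at -0.01 with upper-quartile scaling and 0.00 with library totals, and LIG1 at -0.01 with the block. With 1 library left out in turn, 31 of 61 genes changed sign, and their lowest and highest log2 fold changes were: CDC45 -0.52 to 0.04, GINS1 -0.07 to 0.4, RFC2 -0.07 to 0.32, POLD3 -0.34 to 0.48, POLA1 -0.48 to 0.81, MCM7 -0.7 to 0.06, FEN1 -1.7 to 0.16, MCM3 -0.7 to 0.05, GINS3 -1.53 to 0.01, POLA2 -0.24 to 0.01, MCM8 -1.66 to 0.2, CDKN1A -1.49 to 0.43, CDKN1C -0.61 to 0.35, TIPIN -1.9 to 1.14, LRWD1 -0.2 to 0.58, MCM2 -0.45 to 0.25, MCM5 -0.57 to 0.42, MCM6 -0.27 to 0.33, MCM10 -1.09 to 1.03, ORC4 -0.16 to 0.25, ORC6 -1.15 to 0.11, CDT1 -0.01 to 0.12, GINS2 -0.93 to 0.1, PRIM1 -0.29 to 0.21, POLD1 -0.44 to 0.01, POLE -0.07 to 0.41, RFC1 -0.16 to 0.15, RFC3 -0.57 to 0, RFC5 -0.31 to 0.17, LIG1 -0.14 to 0.35, RRM2 -0.38 to 0.31. The cause was not tested.

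Among genes of the further lists, CCND2 passed in edgeR without the filter (1.6), with the replicate block (1.44), and with WT replicate 1 (2), with WT replicate 2 (1.69) or with GFI1-KO replicate 2 (2.97) left out. CAD passed with the block (-0.86) and UHRF1 without GFI1-KO replicate 2 (-2.15). Depth limits GFI1-KO replicate 1 most: with a median of 5 counts per replication gene its single-gene values are imprecise. That library also held 0.216% of its counts in genes with histone symbols, against 0.0015% to 0.00277% in the others. With GFI1-KO replicate 1 left out, GFI1-KO is 1 library, assumed to vary as WT does.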

Other observations

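Ratios of 2 genes within a library do not depend on the scaling between libraries. MCM10 counts per MCM7 count were 0.0965 (exact 95% counting interval 0.0691 to 0.132) in WT replicate 1, 0.222 (0.185 to 0.265) in WT replicate 2, 0.13 (0.0251 to 0.432) in GFI1-KO replicate 1 and 0.189 (0.152 to 0.234) in GFI1-KO replicate 2. CDKN1A counts per PCNA count were 1.22 (1.04 to 1.41) and 0.264 (0.212 to 0.327) in WT and 1.1 (0.424 to 2.89) and 0.467 (0.375 to 0.578) in GFI1-KO. RFC1 counts per RFC2 count were 1.88 (1.47 to 2.4) and 2.06 (1.65 to 2.58) in WT and 2.29 (0.89 to 6.57) and 1.43 (1.14 to 1.79) in GFI1-KO.

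The median WT ratio (replicate 2 over replicate 1) of replication genes was compared by their E2F-type promoter letters. It was 1.3 over the 14 genes with such letters (0.96 to 1.91) and 1.23 over the 25 without (0.82 to 3.31), given as a description.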
